A study of Mus musculus with 36 samples.

Results

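The genes described here encode the proteasome, its activators and the chaperones that assemble it. They were taken as every gene symbol in the count tables that starts with Psm, then one of the letters a to g, then a digit. The pattern found 50 of the 24058 genes used, and every one of them is accounted for below. By known function, 31 encode the constitutive 26S particle, made up of 7 alpha and 7 beta subunits of the 20S core and 6 ATPase and 11 non-ATPase subunits of the 19S regulatory particle. Another 3 encode the immunoproteasome subunits (Psmb8, Psmb9 and Psmb10), 7 encode assembly chaperones (Psmd5, Psmd9, Psmd10 and Psmg1 to Psmg4) and 5 encode activators or an inhibitor (Psme1 to Psme4 and Psmf1). The remaining 4 are Psma8 and Psmb11, subunits of testis and thymus, Psme2b, a near copy of Psme2, and Psmc3ip, which matches the pattern by name and encodes a recombination protein rather than a proteasome subunit.

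The slices came from adult C57BL/6 mice of both sexes that carried 1 allele of RiboTag, a ribosomal protein L22 that gains an HA tag after Cre recombination, and 1 allele of Camk2a-cre, which drives Cre in excitatory neurons. LTP slices received a chemical LTP stimulus (forskolin, then raised K+ and Ca2+ in ACSF without Mg2+), and basal slices received vehicle for a matched time. All slices were acute hippocampal mini-slices of CA3 and CA1 with the dentate gyrus removed, collected 30, 60 or 120 min after stimulation. TRAP libraries hold RNA from the anti-HA immunoprecipitate and so RNA on the tagged ribosomes, whereas Total libraries hold RNA from a portion of the same homogenate. Each of the 12 groups (TRAP LTP, TRAP basal, Total LTP and Total basal at 3 times) had 3 replicates, each pooled from 4 mice, and the LTP and basal slices of a replicate came from the same animals. The 30 min libraries were sequenced with single-end and the others with paired-end reads, so time and read layout cannot be told apart and the 3 times are set side by side only.

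The proteasome degrades proteins that carry ubiquitin chains. The 19S particle receives the tagged protein, removes the ubiquitin, and its ring of ATPases unfolds the chain and feeds it through the gate of the alpha ring into the core, where 3 beta subunits cut it. Interferons induce replacement beta subunits, chiefly in immune cells, and these change which peptides are made for antigen presentation. At hippocampal synapses, proteasome activity is known to take part in the turnover of synaptic proteins during plasticity.

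Short stretches of promoter are printed because subunit genes of a complex of fixed stoichiometry are known to be transcribed together and the same motifs were searched in each promoter found. RefSeq start sites on GRCm38.p6 gave 44 promoters for 41 of the 50 genes, each running from 250 bases before the start to 50 after it. The antioxidant response element TGACNNNGC, searched on both strands like all motifs here, was in 6 of the 44 (13.6%, against 12.4% of all 32851 promoters). The windows of the genes for 2 catalytic subunits are shown 5′ to 3′ on the strand that carries the element, with the element in capitals. In Psmb5 it lies at chr14:54618034-54618042 on the minus strand, and in Psmb6 at chr11:70525348-70525356 on the plus strand.
Psmb5: gtgaagttgTGACGTCGCggcgttgcc
Psmb6: taaagagagTGACGGAGCgctttacga
The first 5 letters of both elements are also TGACG, the core of the cAMP response element (CRE), which was in 20 of the 44 promoters (45.5%, against 20.8% of all). The full CRE TGACGTCA was in 0 of the 44, against 1.79% of all promoters, and CCAAT was in 15 (34.1%, against 37.4%).

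The ETS motif CCGGAAG was in 16 of the 44 promoters (36.4%, against 8.86% of all). It is shown in capitals for 3 subunits of the 19S non-ATPase group and 1 ATPase. The sites lie at chr16:20651626-20651632 for Psmd2, chr3:95042733-95042739 for Psmd4, chr14:14120984-14120990 for Psmd6 and chr12:100110174-100110180 for Psmc1, all on the minus strand.
Psmd2: tcctccagaCCGGAAGcgccctgcg
Psmd4: acagctgttCCGGAAGctgctgcga
Psmd6: gagacgcgaCCGGAAGtcagactgg
Psmc1: tcgccaccgCCGGAAGtgcatccac
A match is a description of letters in a window and was not tested against the expression values.

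Libraries held 21265627 to 52459224 reads in genes. The ribosomal RNA locus Rn45s took 40.6% to 61.4% of the reads in the 3 TRAP basal libraries at 120 min, which left 10146353 to 16753607 other reads there, against 0.13% to 1.58% in the TRAP LTP libraries of that time. Of 10 excitatory neuron markers, 8, 7 and 8 were higher by TRAP than in Total RNA of basal slices at 30, 60 and 120 min, and 8 of 8 markers each of interneurons, astrocytes, oligodendrocytes, microglia and endothelial cells were lower at each time. By the criteria given below, 29%, 27% and 26.8% of all genes tested were higher and 32.7%, 31.1% and 32.4% lower. LTP slices had higher counts of all 6 activity-induced genes on a fixed list at each time, both by TRAP and in Total RNA.

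The first comparison asks which of these transcripts sat on ribosomes of excitatory neurons more than their share of all hippocampal RNA would give, in unstimulated slices. Most proteasome genes were higher by TRAP than in Total RNA at 30 and 60 min. A gene was called where the Benjamini-Hochberg adjusted p of edgeR's quasi-likelihood test over all genes was below 0.1 and the log2 ratio was beyond 0.4 in either direction. At 30 min, 41 of the 48 tested were called higher and 4 lower, where 29% of all genes tested were higher and 32.7% lower. At 60 min, 35 of 49 were higher and 4 lower (27% and 31.1% of all genes), and at 120 min, 24 of 48 were higher and 3 lower (26.8% and 32.4%). Over the members tested, the median log2 ratios of TRAP over Total were 0.69, 0.58 and 0.40 in order of time, the first and the last of them 1.61-fold and 1.32-fold, whereas the medians of all genes tested were −0.00, 0.01 and −0.02. The ratios are relative to the other genes of the same libraries, and in a whole-slice sample fewer cells of a type and less RNA per cell cannot be told apart.

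In most genes the 3 TRAP values stood clear of the 3 Total values. At 30 min no TRAP library overlapped any Total library for 42 genes that were higher and 5 that were lower (39.7% of all genes in each direction), at 60 min for 43 and 5 (38.8% and 38.9%), and at 120 min for 34 and 4 (36% and 39.2%). Summed over the 31 constitutive subunits, the CPM, reads scaled to the size of each library with TMM factors, were 3992 to 4088 in TRAP basal libraries against 2497 to 2598 in Total basal libraries at 30 min. They were 3613 to 3969 against 2529 to 2772 at 60 min and 2580 to 3063 against 2151 to 2175 at 120 min. The sums did not overlap at any of the 3 times.

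**Figure D1:**
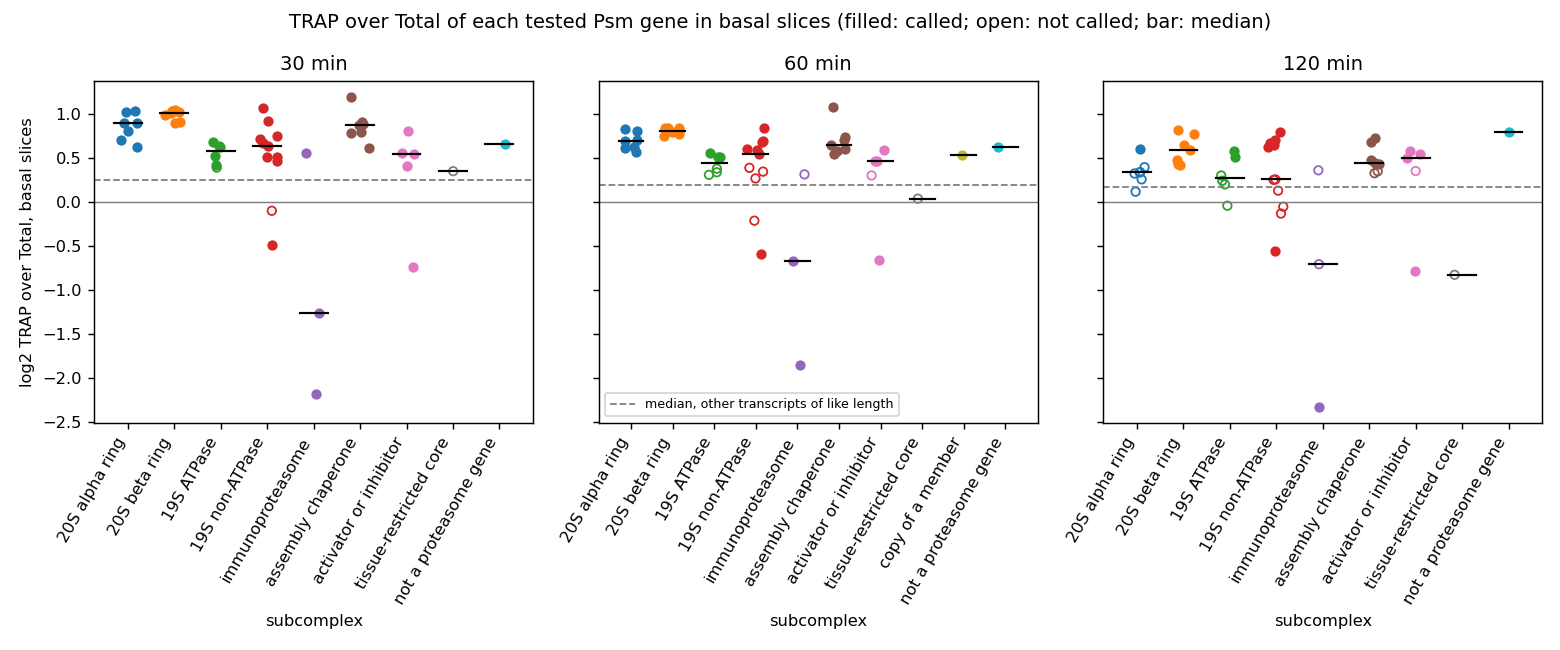
Log2 ratio of TRAP over Total RNA in basal slices for each tested gene (points, filled where called), by subcomplex, at 30, 60 and 120 min, with a bar at each median and a dashed line at the median of other transcripts of like length. The beta ring genes lie between 0.89 and 1.04 at 30 min, while Psmb8 lies at −2.19.

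The 3 catalytic subunits of the constitutive core were higher by TRAP at each time. Psmb5, at chr14:54614119-54618022 (mm10), encodes the chymotrypsin-like subunit. Its reads may not be fully separated from those of a copy, Gm3375, with 98.9% identity over 796 nt. Psmb5 had 60.1, 58.6 and 58.1 CPM in TRAP basal libraries against 30.4, 27.3 and 27.7 CPM in Total basal libraries at 30 min, 100.2, 109.7 and 106 against 52.6, 62.9 and 64.7 at 60 min, and 88.5, 74.2 and 80.3 against 47.4, 46.0 and 47.5 at 120 min. The groups were apart at every time, and the log2 ratios were 1.04 ± 0.06 (SE, n = 3 per group, adjusted p = 4.6e-08), 0.80 ± 0.08 and 0.77 ± 0.07.

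Psmb6, at chr11:70525367-70527858, encodes the caspase-like subunit. At 30 min it had 177, 175 and 182 CPM in TRAP basal libraries against 92.4, 88.7 and 82.4 CPM in Total basal libraries, a log2 ratio of 1.01 ± 0.05 (SE, adjusted p = 1.3e-08). Its ratios at 60 and 120 min were 0.84 ± 0.07 and 0.82 ± 0.06. Psmb7, at chr2:38588036-38644087, encodes the trypsin-like subunit. At 30 min it had 186, 190.4 and 183 CPM in TRAP basal libraries against 103, 101 and 92.1 CPM in Total basal libraries. At 120 min its TRAP values were 115, 102 and 145 CPM against 86.7 to 90.4 CPM in Total RNA, which did not overlap although the TRAP replicates spread widely. Psmb7 had log2 ratios of 0.91 ± 0.05, 0.74 ± 0.06 and 0.42 ± 0.10 at the 3 times (SE, adjusted p = 0.003 for the last). The Psmb7 locus overlaps Nek6 by 405 nt, and reads there cannot be assigned by strand because the kit keeps none.

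**Figure D2:**
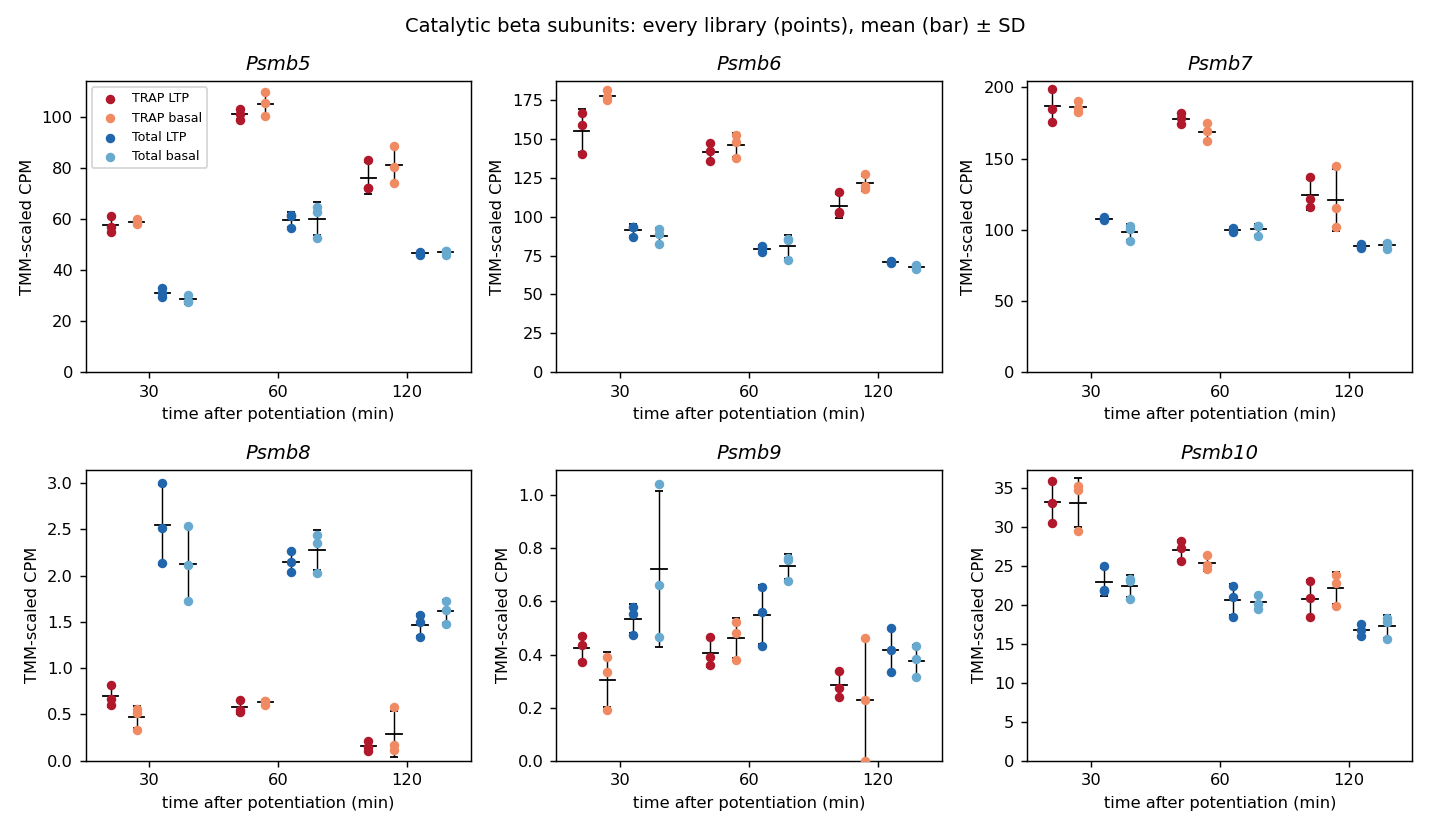
TMM-scaled CPM of Psmb5 to Psmb10 in every library at 30, 60 and 120 min (points), with the mean ± SD of each group of 3. Psmb5, Psmb6 and Psmb7 sit higher by TRAP at every time, and Psmb8 sits lower, at 0.562, 0.517 and 0.335 CPM in TRAP basal libraries against 2.11, 2.53 and 1.73 CPM in Total basal libraries at 30 min.

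The rest of the beta ring moved with its catalytic members. All 7 beta subunit genes were called higher at each time, with log2 ratios of 0.89 to 1.04 at 30 min, 0.74 to 0.84 at 60 min and 0.42 to 0.82 at 120 min. At 120 min Psmb2 was not called with the replicate block (0.39), and neither Psmb2 nor Psmb7 was called with upper-quartile factors (0.36 and 0.37). Psmb4, a structural beta subunit, had 244 to 256 CPM in TRAP basal libraries against 119 to 127 CPM in Total basal libraries at 30 min. The 7 alpha subunit genes, which form the gated outer rings, were all called at 30 min (0.62 to 1.03) and 60 min (0.56 to 0.82). At 120 min their log2 ratios were 0.11 to 0.60 and only Psma7 was called. Psma7 had 154, 156 and 155 CPM in TRAP basal libraries against 76.3, 76.1 and 74.2 CPM in Total basal libraries at 30 min (log2 ratio 1.03), and 87.3, 69.3 and 101 against 56.8, 56.2 and 55.4 CPM at 120 min (0.60). At 120 min the TRAP basal replicates of several 20S genes were spread in the same order, lowest in replicate 2 and highest in replicate 3, as the values of Psma7, Psmb4 (132, 102 and 147 CPM) and Psma6 (64.1, 54.2 and 76.2 CPM) show. Without replicate 2 the count of members called in either direction at 120 min was 33 and the median log2 ratio 0.50, and without replicate 3 they were 23 and 0.31, against 27 and 0.40 with all libraries.

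The 19S particle had smaller ratios. Its 6 ATPases, the ring that unfolds substrates, had median log2 ratios of 0.57, 0.44 and 0.27 at the 3 times, with 5, 3 and 2 called higher. Psmc3 was among those called at every time (0.68, 0.51 and 0.51), as was Psmc4 (0.63, 0.55 and 0.57). Psmc6 stood at the low end at 120 min, with 61.4, 56.1 and 81.4 CPM in TRAP basal libraries against 67.4, 67.2 and 68.6 CPM in Total basal libraries. Those groups overlapped, and the log2 ratio was −0.05.

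The 11 non-ATPase genes held both the largest and the smallest ratio of the constitutive particle at 30 min. At that time 9 were called higher, at 60 min 6 and at 120 min 5, and 1 was lower at each time. Psmd11, at chr11:80428615-80473248, encodes a lid subunit. It had 58.7, 55.5 and 56.7 CPM in TRAP basal libraries against 28.9, 27.8 and 24.2 CPM in Total basal libraries at 30 min, and 51.7, 55.9 and 58.2 against 31.4, 31.5 and 31.3 CPM at 120 min. Its log2 ratios were 1.06 ± 0.07, 0.84 ± 0.06 and 0.79 ± 0.07 (SE, adjusted p of 1.1e-07, 8.9e-08 and 1.0e-06), although reads cannot be fully separated from A730017L22Rik, a copy with 97.9% identity that has counts of its own. The ubiquitin receptor Psmd4 was also higher at each time (0.67, 0.60 and 0.70), and so was the lid subunit Psmd8 (0.92, 0.68 and 0.67).

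Psmd1, at chr1:86064387-86139151, was the lower gene of the constitutive particle. It encodes a large scaffold of the 19S base. It had 109.5, 118 and 113 CPM in TRAP basal libraries against 153, 165 and 157 CPM in Total basal libraries at 30 min, 102, 103 and 101 against 156, 153 and 152 CPM at 60 min, and 82.3, 87.5 and 90.3 against 124, 128 and 126 CPM at 120 min. The groups were apart each time, with log2 ratios of −0.49 ± 0.05, −0.60 ± 0.05 and −0.56 ± 0.06 (SE, adjusted p of 2.9e-06, 3.5e-07 and 6.3e-06). These calls were lost at all 3 times once a trend in length and GC content was removed. That step also raised the median of all genes in basal slices at 120 min, while the minimum size stayed fixed. A lost call therefore need not mean a ratio nearer to that of other genes. Psmd2, the other large scaffold of the base, had 199.9, 198 and 182 CPM by TRAP against 205, 207 and 206 CPM in Total RNA at 30 min, and its log2 ratios of −0.10, −0.22 and −0.13 were not called. Psmd14, the lid enzyme that removes ubiquitin, was called at 30 min (0.51) and not at the other times (0.34 and −0.06).

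The assembly chaperones were higher as a group. All 7 were called higher at 30 and 60 min and 5 at 120 min, with median log2 ratios of 0.87, 0.64 and 0.44. Psmg3, at chr5:139823592-139826885, helps to build the alpha ring. It had 13.6, 13.5 and 13.3 CPM in TRAP basal libraries against 5.90, 6.00 and 5.59 CPM in Total basal libraries at 30 min, 10.7 to 12.3 against 5.27 to 5.76 CPM at 60 min, and 9.20, 7.83 and 8.64 against 5.04, 5.72 and 5.19 CPM at 120 min. Its log2 ratios of 1.19 ± 0.09, 1.07 ± 0.09 and 0.68 ± 0.11 (SE) gave the highest mean over the 3 times of the 48 genes tested at all of them. Psmd9, a chaperone of the 19S base, had ratios of 0.78, 0.74 and 0.73. The loci of Psmg3 and Psmd9 overlap the annotated genes Gm26938 (280 nt) and Gm26745 (1849 nt), whose reads could not be told apart by strand.

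Among the activators, 4, 3 and 3 of 5 were called higher at the 3 times and Psme4 was called lower at each. Psme1 and Psme2 encode the PA28 cap induced by interferon, and Psme1 was higher at each time (0.54, 0.46 and 0.54). Psme2 was called at 30 and 60 min (0.80 and 0.58) and not at 120 min (0.35). Psme3, the nuclear PA28 gamma, was higher at each time (0.55, 0.46 and 0.49). Psme4, at chr11:30771726-30880361, encodes PA200, a large nuclear activator. It had 37.9, 39.3 and 36.9 CPM in TRAP basal libraries against 63.9, 66.7 and 58.7 CPM in Total basal libraries at 30 min, with log2 ratios of −0.74 ± 0.06, −0.67 ± 0.06 and −0.79 ± 0.07 (SE, adjusted p of 7.6e-07, 6.6e-07 and 1.1e-06). Its calls too were lost at all 3 times with the length and GC trend removed, a step that also raised the median of all genes at 120 min. Psmc3ip, which is no proteasome gene, had ratios of 0.65, 0.62 and 0.79, all called.

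Of the 3 immunoproteasome genes, Psmb8 was lower by TRAP in basal slices at each time, Psmb9 was lower at 30 and 60 min, and Psmb10 was not lower. Psmb8, at chr17:34197721-34201454, replaces Psmb5. It had 0.562, 0.517 and 0.335 CPM in TRAP basal libraries against 2.11, 2.53 and 1.73 CPM in Total basal libraries at 30 min, 0.603, 0.643 and 0.65 against 2.35, 2.03 and 2.44 CPM at 60 min, and 0.174, 0.115 and 0.576 against 1.63, 1.48 and 1.73 CPM at 120 min. Every TRAP value was below every Total value, and the log2 ratios were −2.19 ± 0.25, −1.85 ± 0.18 and −2.33 ± 0.37 (SE, adjusted p of 6.8e-06, 1.3e-06 and 0.00014). These rest on few reads, 15 to 27 per TRAP basal library at 30 min and 1 to 10 at 120 min.

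Psmb9, at chr17:34181987-34187764, replaces Psmb6 and was scarcer still. It had 0.391, 0.192 and 0.335 CPM in TRAP basal libraries against 0.465, 1.04 and 0.66 CPM in Total basal libraries at 30 min. The log2 ratios were −1.26 ± 0.38 at 30 min (SE, adjusted p = 0.01) and −0.67 ± 0.24 at 60 min (adjusted p = 0.024, but 0.12 with DESeq2), and −0.71 ± 0.62 at 120 min, which was not called and where TRAP basal libraries held 0, 2 and 8 reads. The Psmb9 locus overlaps Tap1 by 212 nt. Psmb10, which replaces Psmb7, was not low by TRAP. It had 35.2, 34.7 and 29.4 CPM in TRAP basal libraries against 23.3, 23.0 and 20.7 CPM in Total basal libraries at 30 min, a log2 ratio of 0.55 ± 0.08 that was called higher. Its ratios of 0.31 and 0.36 at 60 and 120 min were below the minimum size.

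Other genes of antigen presentation and the interferon response, from a list of 9, were lower by TRAP in 8 of 9 at each time (32.7%, 31.1% and 32.4% of all genes), with a median log2 ratio of −1.53 at 30 min. They included H2-K1, an MHC class I heavy chain (−3.18), and Tap2, a peptide transporter (−1.72). Summed microglia markers were 21.2 to 26.2 CPM in TRAP basal libraries against 275 to 308 CPM in Total basal libraries at 30 min, and the part of microglial RNA in the Psmb8 and Psmb9 values was not tested.

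Of the remaining members, Psmb11 had 1 to 26 reads per library and none of its log2 ratios (0.35, 0.03 and −0.83) was called. Psma8 had 0 to 10 reads and did not pass the filter on low counts at any time. Psme2b passed it only at 60 min, where its log2 ratio in basal slices was 0.53 (adjusted p = 0.028), a call that DESeq2 did not make (adjusted p = 0.12), and its reads cannot be told apart from those of Psme2, with which it shares 99.37% of its sequence. In all, 16 of the 50 genes match another annotated transcript with at least 95% identity over at least 200 nt. For Psmb7, Psmb9, Psmc3ip, Psmd1, Psmd13 and Psmg3 the only match is an overlapping neighbour with 100% identity rather than a copy. These neighbours are Nek6, Tap1, Mlx, Gm21972, Sirt3 and Gm26938.

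Per kb of transcript, the levels of the 31 constitutive subunits were unequal. In TRAP basal libraries at 60 min the median was 79.1 CPM per kb, Psmb6 was highest with 183 ± 9.83 CPM per kb (SD, n = 3), and Psmb4 and Psmb7 followed with 172 ± 12.2 and 146 ± 5.47 CPM per kb. Psmb4 and Psmb6 were within their spread of each other. Psmd11 was lowest with 22.3 CPM per kb, so that highest over lowest was 8.23. Psmd11 has copies with 97.9% and 98.0% identity, and Psma3, Psma4, Psma5 and Psmd2, which also had levels below the median, have copies too. Psmb5, Psmc1 and Psmb3 have copies as well, with levels above the median (117, 107 and 98.9 CPM per kb). How far reads shared with copies, or the annotated transcript length used per gene, shaped these levels was not tested. Total basal libraries of that time gave 102 CPM per kb for Psmb6 and 12.4 for Psmd11, a ratio of 8.20, so the spread of levels among subunits was alike in both kinds of RNA.

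Proteasome transcripts are short, with a median of 1435 nt (555 to 6491), and short transcripts as a whole were higher by TRAP in these libraries. Across the genes described here, the log2 ratio at 30 min was lower the longer the transcript, with Spearman's rho of −0.57 over 48 genes, against −0.29 over 14896 genes of all kinds. At 60 and 120 min, rho was −0.50 and −0.34 over the proteasome genes against −0.26 and −0.22 over all genes. These are descriptions across genes of the same libraries, which are not independent replicates, and the genes share those libraries and their depth. The longest member was Psme4, one of the 4 genes called lower at 30 min.

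In most length classes the median of the proteasome genes was above that of other genes. At 30 min it was below the 75th percentile of other genes from 1000 to under 1500 nt and from 1500 to under 2000 nt (0.84 and 0.70). It was above that percentile under 1000 nt, from 2000 to under 3000 nt and from 3000 to under 5000 nt (0.87, 0.51 and 0.34). At 30 min, the median log2 ratio of members under 1000 nt was 1.00 against 0.48 for other genes of that length, and in the class from 1000 to under 1500 nt it was 0.71 against 0.52. The class from 1500 to under 2000 nt gave 0.57 against 0.31, and that from 2000 to under 3000 nt gave 0.66 against 0.10. From 3000 to under 5000 nt, 4 members had a median of 0.37 against −0.10, while Psme4 alone filled the class of 5000 nt and over, at −0.74 against −0.37. At 120 min the members' medians were 0.62, 0.39, 0.28 and 0.41 in the 4 shortest classes against 0.17, 0.33, 0.22 and 0.07 for other genes. From 3000 to under 5000 nt they were alike at that time (−0.07 against −0.08), and Psme4 had −0.79 against −0.35. Only the class under 1000 nt was then above the 75th percentile of other genes (0.60).

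**Figure D3:**
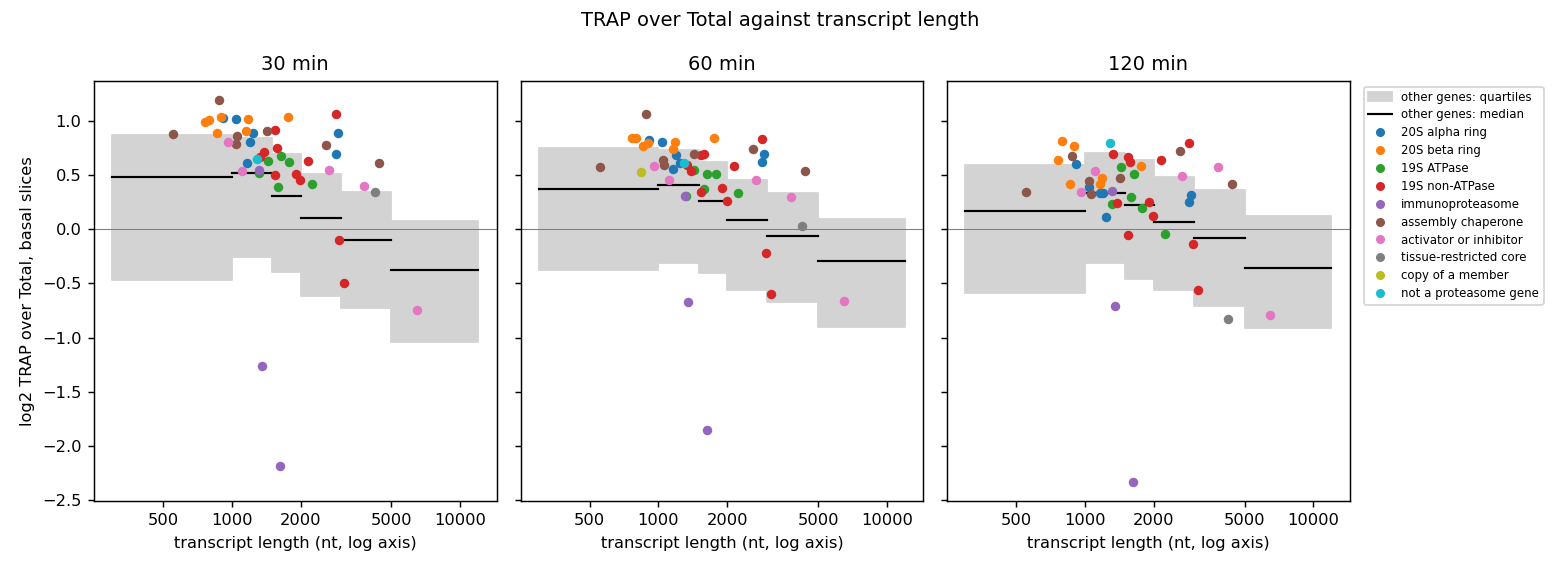
Log2 ratio of TRAP over Total RNA in basal slices against transcript length (log axis) for each proteasome gene, with the median and quartiles of other genes per length class in grey. At 30 min the members under 1000 nt have a median of 1.00 and the other genes of that length 0.48.

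All members tested, inside or outside a window of 880.6 to 2976.1 nt that holds 40 of the 50, had medians of 0.69, 0.58 and 0.40. All other transcripts inside that window, not only protein-coding ones (10008 of the 11124 listed), had medians of 0.24, 0.19 and 0.17. The sides are therefore not fully matched on length or on coding type. Of those other transcripts, 2617 of 6570 (39.8%) were called higher at 30 min. Nuclear genes of oxidative phosphorylation, another set of short, widely expressed transcripts, had medians like those of the proteasome genes (0.91, 0.68 and 0.40), with 66 of 79, 62 of 80 and 40 of 79 called higher (29%, 27% and 26.8% of all genes). Cytosolic ribosomal protein genes, which are also short, did not, with medians of −0.05, −0.11 and −0.48 and 5 of 82, 7 of 83 and 1 of 83 called higher. With a trend in length and GC content removed from the counts, the members' median minus that of all genes was 0.42, 0.34 and 0.29 at the 3 times, where the values without that step were 0.69, 0.58 and 0.43. Under it neither Psmd1 (−0.19, −0.30 and −0.22) nor Psme4 (−0.20, −0.20 and −0.24) was called lower in basal slices at any of the 3 times, and neither was in LTP slices.

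In LTP slices the same comparison gave 34 of 48 genes higher by TRAP and 3 lower at 30 min (28.1% and 32.2% of all genes), 35 of 49 and 3 at 60 min (27.2% and 30.9%), and 19 of 48 and 3 at 120 min (26% and 31.9%). The median log2 ratios were 0.52, 0.56 and 0.31. The beta ring had the highest median of the 4 groups of constitutive subunits at each time (0.75, 0.82 and 0.47, with 7, 7 and 5 of 7 called). The alpha ring followed at 30 and 60 min (0.61, 0.65 and 0.25, with 6, 7 and 1 of 7 called).

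Psmd11 had the highest mean ratio over the 3 times in LTP slices. It had log2 ratios of 0.96, 0.85 and 0.92, and Psmg3 had 0.91, 0.99 and 0.76. Psmb5 had 61.0, 54.7 and 56.8 CPM in TRAP LTP libraries against 32.9, 31.1 and 29.3 CPM in Total LTP libraries at 30 min, and log2 ratios of 0.87, 0.75 and 0.67. At the other end, Psmb8 had 0.603, 0.82 and 0.665 CPM in TRAP LTP libraries against 2.13, 2.52 and 3.00 CPM in Total LTP libraries at 30 min, and log2 ratios of −1.93, −1.90 and −3.22. Psme4 (−0.73, −0.70 and −0.66) and Psmd1 (−0.49, −0.57 and −0.49) were lower at each time, and Psmb9 (−0.38, −0.44 and −0.58) was not called.

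**Figure D4:**
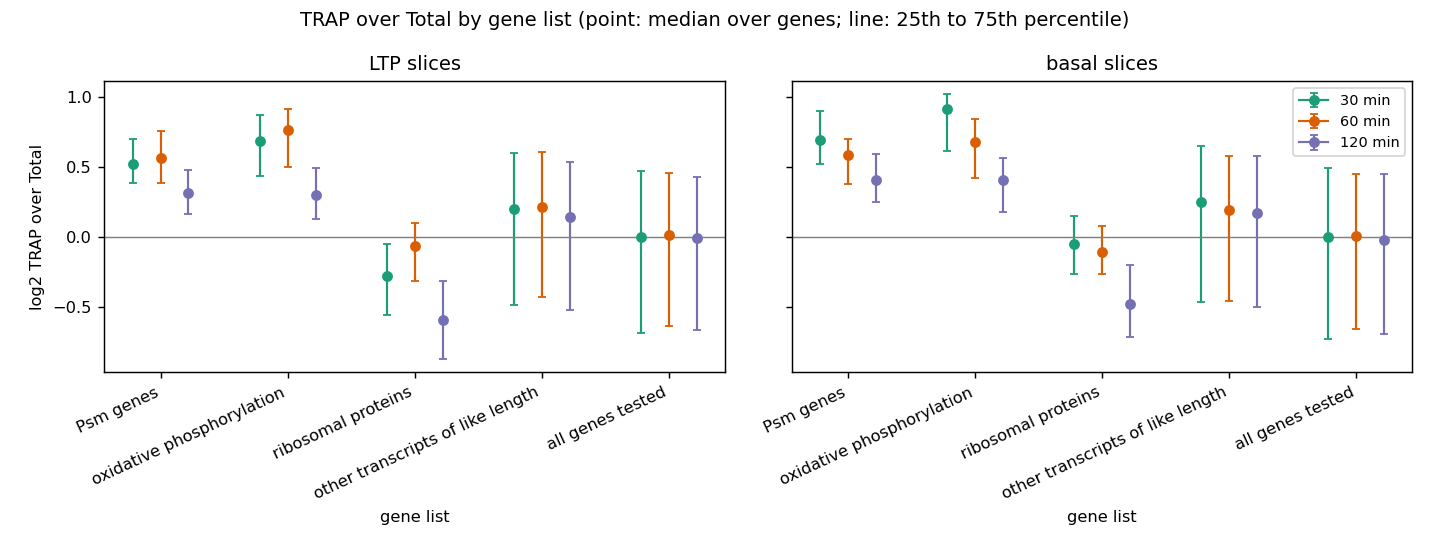
Median log2 ratio of TRAP over Total RNA (points, with 25th to 75th percentiles) for proteasome genes and the comparison lists at 30, 60 and 120 min, in LTP slices (left) and basal slices (right). The medians of the proteasome genes are 0.52, 0.56 and 0.31 in LTP slices and 0.69, 0.58 and 0.40 in basal slices, and those of ribosomal protein genes are below 0 in all 6 cases.

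The second comparison asks whether chemical LTP changed these transcripts on the ribosomes of excitatory neurons. By TRAP, 0 of 48, 0 of 49 and 0 of 45 tested members were called between LTP and basal slices at 30, 60 and 120 min with edgeR, where 0.393%, 0.471% and 1.64% of all genes were. An unadjusted p below 0.05 was reached by 12, 4 and 1 members (12.9%, 12.7% and 12.4% of all genes), DESeq2 also called 0 at each time, and the lowest adjusted p of any member was 0.12, 0.27 and 0.33. The medians of log2 LTP over basal were −0.11, −0.03 and −0.06, and single genes lay between −0.25 and 0.53 at 30 min, −0.20 and 0.17 at 60 min and −0.34 and 0.18 at 120 min. Without TRAP LTP replicate 2, in which Rn45s took 8.04% of reads, the 30 min median was −0.06.

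At 30 min most values were small and below 0. They were below 0 in 39 of 48 genes, among them all 7 alpha subunits and all 6 ATPases, and all 3 LTP values were under all 3 basal values in 15 genes (9.55% of all genes). Members under 1000 nt had a median of −0.12 against −0.04 for other genes of that length at 30 min, 0.01 against 0.03 at 60 min, and −0.13 against −0.11 at 120 min. Psma6, an alpha subunit at chr12:55384222-55418454, had the lowest mean over the 3 times. It had 91.4, 81.5 and 95.2 CPM in TRAP LTP libraries against 106, 107 and 106 CPM in TRAP basal libraries at 30 min, which did not overlap, and a log2 value of −0.25 ± 0.06 (SE, adjusted p = 0.12). At 60 and 120 min its TRAP values overlapped between LTP and basal slices (−0.10 and −0.12). Summed over the constitutive subunits, TRAP LTP libraries had 3556 to 3951 CPM against 3992 to 4088 CPM in TRAP basal libraries at 30 min, 3614 to 3906 against 3613 to 3969 CPM at 60 min, and 2581 to 2834 against 2580 to 3063 CPM at 120 min. The sums were apart at 30 min and overlapped at the other times.

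With the replicate as a block, since LTP and basal slices of a replicate share animals, the count by TRAP stayed at 0 at each time under the same criteria. Only sparsely counted genes lay beyond the minimum size of 0.4 without the block, so this count could hardly change. With the block and no minimum size, an alternative chosen after the data were seen, 14 of 48 members were lower and 0 higher in LTP slices at 30 min, where 7.71% of all genes were lower at an adjusted p below 0.1. The 14 were Psma1, Psma2, Psma5, Psma6, Psmb1, Psmb6, Psmc2, Psmc4, Psmc5, Psmd2, Psmd7, Psmd12, Psme3 and Psmg2. Psma6 then had an adjusted p of 0.0026. At 60 min the same fit gave 4 higher and 6 lower of 49 (24.3% of all genes in either direction), and at 120 min 1 higher and 3 lower of 45 (19.2%).

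The catalytic subunits showed no called response. Psmb5 had 61.0, 54.7 and 56.8 CPM in TRAP LTP libraries against 60.1, 58.6 and 58.1 CPM in TRAP basal libraries at 30 min (log2 value −0.03). Psmb6 had 167, 140.4 and 159 against 177, 175 and 182 CPM (−0.19), and Psmb7 had 199, 176 and 185 against 186, 190.4 and 183 CPM (0.00). The LTP and basal values overlapped for Psmb5 and Psmb7 and not for Psmb6. The largest value above 0 was that of Psmb8 at 30 min, 0.53 ± 0.29 (SE, adjusted p = 0.47), from 17 to 21 reads in TRAP LTP libraries against 15 to 27 in TRAP basal libraries. The highest mean over the 3 times was that of Psmd13, a lid subunit, with 69.5, 70.2 and 71.6 CPM in TRAP LTP libraries against 61.9, 65.4 and 66.3 CPM in TRAP basal libraries at 60 min, and log2 values of 0.02, 0.12 and 0.07. None of these was called.

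The other genes at the ends of the range by TRAP also had small values. Psmg2, a chaperone of the alpha ring, had 15.6, 14.9 and 16.6 CPM in TRAP LTP libraries against 17.3, 20.1 and 17.9 CPM in TRAP basal libraries at 30 min. Its groups were apart at that time, and its log2 values were −0.23, −0.20 and −0.01. Psmg4, another such chaperone, had 4.84, 3.51 and 5.51 CPM in TRAP LTP libraries against 5.03, 4.83 and 7.32 CPM in TRAP basal libraries at 120 min, which overlapped, and log2 values of −0.16, 0.04 and −0.34. At the upper end, the lid subunit Psmd3 had log2 values of 0.04, 0.11 and 0.06. Psme4 had 28.6, 33.1 and 31.5 CPM in TRAP LTP libraries against 26.6, 27.4 and 27.7 CPM in TRAP basal libraries at 120 min, which were apart, and log2 values of 0.06, −0.08 and 0.18.

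**Figure D5:**
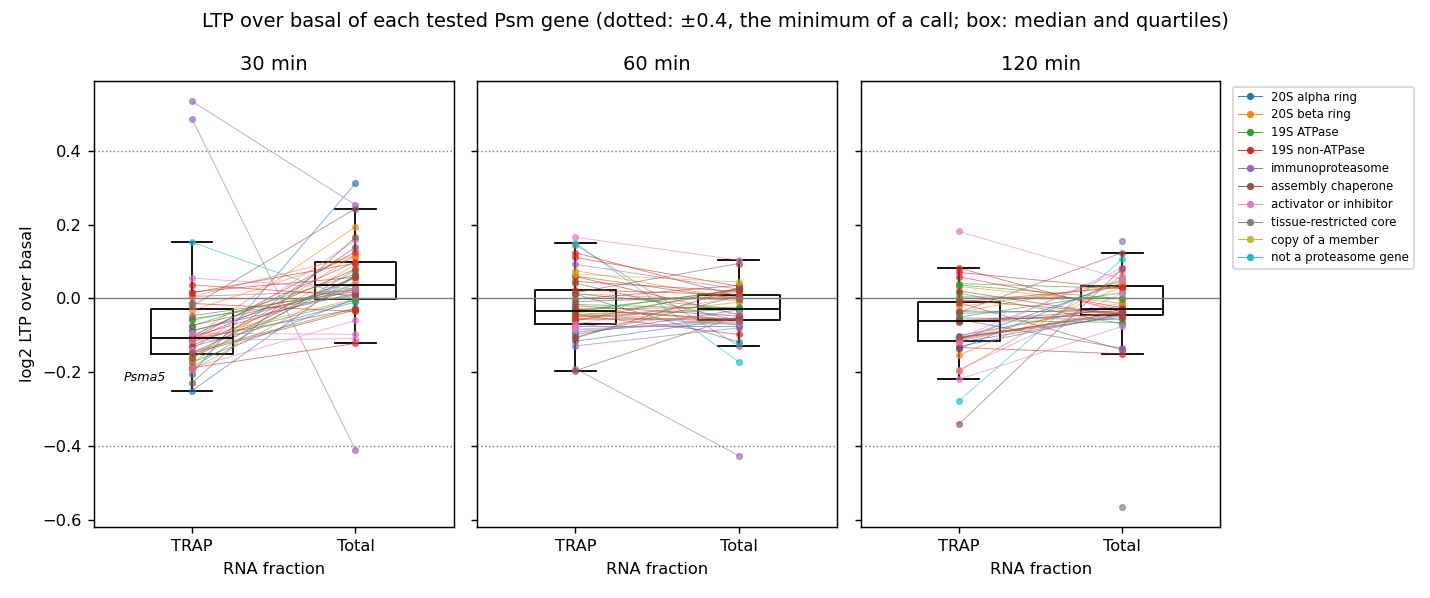
Log2 LTP over basal for each tested gene at 30, 60 and 120 min, by TRAP and in Total RNA, with a line per gene tested in both, boxes at the median and quartiles, whiskers to the last gene within 1.5 box heights and dotted lines at the minimum size of 0.4 in either direction. The sparsely counted Psmb8, Psmb9 and Psmb11 are the only genes beyond 0.4, and Psma5 at 30 min has −0.20 by TRAP and 0.31 in Total RNA.

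In Total RNA, 0 of 47, 0 of 49 and 0 of 48 members were called between LTP and basal slices with edgeR at the 3 times (0.119%, 0.224% and 1.37% of all genes), and DESeq2 called 0 as well. An unadjusted p below 0.05 was reached by 6, 0 and 1 members (7.44%, 3.59% and 12.1% of all genes), and the medians were 0.04, −0.03 and −0.03. At 30 min all 3 LTP values were above all 3 basal values in 11 genes (6.02% of all genes). Psmb4 had 137, 147 and 139 CPM in Total LTP libraries against 127, 119 and 121 CPM in Total basal libraries at 30 min, a log2 value of 0.19. Psmg3 was likewise apart at 30 min, with 6.86 to 7.06 CPM in Total LTP libraries against 5.59 to 6.00 CPM in Total basal libraries. Its log2 values were 0.24, 0.09 and −0.14, the last below 0. The 19S chaperone Psmd10 had log2 values of 0.10, −0.00 and 0.12. At the low end, the inhibitor Psmf1 had values of −0.10, −0.06 and −0.08, the alpha subunit Psma3 of −0.01, −0.08 and −0.04, and the sparsely counted Psmb9 of −0.41, −0.43 and 0.16. Psmd7, the lid partner of Psmd14, had 60.7, 53.5 and 58.9 CPM in Total LTP libraries against 64.1, 62.7 and 65.1 CPM in Total basal libraries at 120 min (−0.15). With the block and no minimum size, 2 members were higher at 30 min (Psma5 and Psmb4, where 1.56% of all genes were higher), 0 passed at 60 min (1.46% in either direction), and 1, Psmd7, was lower at 120 min (1.79% lower).

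A test of the difference between the LTP response by TRAP and that in Total RNA called 1 member, Psma5 at 30 min, and 0 at 60 and 120 min with edgeR and with DESeq2 (edgeR called 0.0652%, 0.0764% and 0.227% of all genes). An unadjusted p below 0.05 was reached by 16, 1 and 2 members (9.57%, 5.98% and 8.05% of all genes), and at 30 min the difference was below 0 in 41 of 48 members. With the block and no minimum size, 7 were lower at 30 min (1.47% of all genes). Psma5 encodes an alpha subunit and lies at chr3:108256926-108279974. By TRAP it had 40.1, 35.0 and 39.5 CPM in LTP slices against 42.5, 47.7 and 42.1 CPM in basal slices at 30 min. In Total RNA it had 28.7, 30.1 and 29.6 CPM in LTP slices against 22.7, 24.3 and 23.8 CPM in basal slices. Each pair of groups was apart, in opposite directions, and neither response was called alone (−0.20, adjusted p = 0.30 by TRAP, and 0.31, adjusted p = 0.11 in Total RNA). The difference was −0.53 ± 0.10 (SE, adjusted p = 0.095). With the replicate block it was again −0.53 and called (adjusted p = 0.015). It was not called with RLE factors (−0.53, adjusted p = 0.10), upper-quartile factors (−0.51, 0.11) or Rn45s left out (−0.53, 0.11), after removing the length and GC trend (−0.44, 0.20), or in 11 of the 12 fits that left out 1 library (adjusted p of 0.10 to 0.33). Psma5 has copies with 98.6% and 97.5% identity, and at 60 and 120 min the difference was −0.06 and 0.00.

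Of the 2 ubiquitin-activating enzymes, 0 were higher by TRAP than in Total RNA of basal slices and 1, 2 and 2 lower at the 3 times. Of all genes tested, 29%, 27% and 26.8% were higher and 32.7%, 31.1% and 32.4% lower in that comparison. Of 20 genes for shuttle factors, deubiquitinases and other proteasome-associated proteins, 12, 12 and 11 were higher and 2, 2 and 3 lower. They included Uchl1, an abundant neuronal deubiquitinase (0.98, 0.81 and 0.69), and Rad23b, a shuttle factor (0.64, 0.73 and 0.68). Pomp, the maturation factor of the 20S core, was higher at each time (1.13, 0.91 and 0.62). Of the genes for control of proteasome supply, Akirin2, which takes part in nuclear import of proteasomes, was higher (0.90, 0.82 and 0.77), and Nfe2l2, which encodes the stress-response factor NRF2, was lower (−3.91, −3.86 and −3.06). Midn, known from other work to bring nuclear proteins to the proteasome without ubiquitin, was higher in LTP than basal slices at 120 min, with a log2 value of 0.59 ± 0.09 by TRAP (SE, adjusted p = 0.0081) and 0.48 in Total RNA.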

How the data were processed

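The authors aligned reads to mm10 with STAR and deposited gene counts per library, with their own normalised values and comparison columns (fold changes, FDR, ranks), which were not used here. Versions were not given in the sources used here. The deposited raw counts were the only values analysed. Of 27 symbols turned into dates by a spreadsheet, 25 were recovered and 2 left out. One basal TRAP library has 60 min in its title and 30 min in another label field and was taken as 60 min.

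Counts were filtered (filterByExpr), scaled (TMM) and fitted per comparison and time with edgeR 4.0.16 quasi-likelihood tests in R 4.3.3, over the libraries of the groups compared, with Benjamini-Hochberg adjustment over all genes. Called means an adjusted p below 0.1 and an absolute log2 value above 0.4, the study's criteria. CPM values were scaled over the 12 libraries of each time. DESeq2 1.42.0 was an alternative, as were RLE and upper-quartile factors, no filter on low counts, a replicate block, removal of a spline trend in length and GC content, Rn45s left out, no minimum size, and each library left out in turn. The fits were tested on simulated data drawn from the 60 min libraries. For LTP over basal by TRAP at 60 min, 74.49% of 98 genes changed 1.5-fold were called among 14553 genes, and 6.59% of the calls were false. For the difference between the responses at 60 min, 59.41% of 101 genes changed 1.5-fold were called among 15476 genes. Of the calls for that difference, 14.6% were false. The simulated libraries were drawn independently from the same mean per gene in all groups, apart from the changed genes. They therefore model no shared animals. Such shares of false calls depend on how many genes were changed and need not hold in the real data. Replicates are separate pools of 4 mice. Replicate numbers pair the samples, since same-numbered slices share animals and homogenates, and the deviations of same-numbered samples correlated by 0.11 to 0.65 except 1 pair at −0.009.

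Gene lengths came from GENCODE M21 and promoters from RefSeq GRCm38.p6. Copies were found with blast 2.17.0. Genes named were the 4 highest and 4 lowest by mean log2 value over the 3 times per comparison, the catalytic and immunoproteasome subunits, and any member called in an LTP comparison. Psma7, also among the 4 highest in LTP slices, is not given there, and for the difference between the responses only Psma5 is given. Other genes of the pathway came from fixed lists, of which that of the ubiquitin genes is not reported here, and some members and list genes given as further examples were picked after their values were seen. The members and lists were chosen with earlier results of these data known.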

Additional observations from a re-analysis of the deposited data

Results flagged for a closer look

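Psma5 at 30 min was singled out because its response to LTP differed between the kinds of RNA by a direct test, an interaction term in edgeR. The log2 LTP response by TRAP minus that in Total RNA was −0.53 (SE 0.10, n = 3 per group, adjusted p = 0.095). All 3 TRAP LTP values were below all 3 TRAP basal values, and all 3 Total LTP values were above all 3 Total basal values. In simulated data drawn from the 60 min libraries, 14.6% of the calls of this interaction test were false. The simulation gave TRAP and Total RNA the same mean per gene, drew the libraries independently and changed a set number of genes. Its share of false calls therefore does not carry over to the 30 min call. The cause of the Psma5 difference was not tested.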

How the results depend on the processing

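No called value changed sign under any alternative run. With no minimum size, 42 of 48 members were called for TRAP over Total in basal slices at 120 min (77.1% of all genes) and 40 of 48 in LTP slices at 120 min (79.1%). After removing the length and GC trend, the members' median log2 ratio was 0.55 in basal slices at 120 min (0.54 with the replicate block), 0.64 in LTP slices at 30 min (0.64 with the block) and 0.55 at 120 min (0.54 with the block), where 34 members were called (34 with the block). That step also raised the median of all genes, to 0.26, 0.30 and 0.28 in the 3 cases. Upper-quartile factors gave a median of 0.59 in basal slices at 30 min and moved the median of all genes to −0.10. With the replicate block and no minimum size, chosen after the data were seen, 14, 10 and 4 members passed for LTP over basal by TRAP at 30, 60 and 120 min, 2 and 1 in Total RNA at 30 and 120 min, and 7 for the difference between the responses at 30 min. The single call for that difference, Psma5, became 0 calls with RLE factors, with upper-quartile factors, without Rn45s and after removing the length and GC trend.

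With the replicate block alone, Psmb2 was lost from the calls in basal slices at 120 min (26 called) and Psmd5 from those in LTP slices at 120 min (21 called). It changed no other count of members for TRAP over Total or LTP over basal. Without each library in turn, members called for TRAP over Total numbered 45 to 46, 39 to 43 and 23 to 33 in basal slices and 37 to 40, 36 to 42 and 19 to 27 in LTP slices at the 3 times. The median in LTP slices at 120 min was then 0.31 to 0.41, and the count for the difference at 30 min 0 to 1. No leave-out gave a call for LTP over basal, but medians near 0 changed sign. The median by TRAP passed 0 without 60 min TRAP LTP replicate 1 (0.00) and without 120 min TRAP basal replicate 3 (0.02), and that of the difference between responses ranged from −0.05 to 0.05 at 60 min and from −0.08 to 0.05 at 120 min. Where a group had few reads (Psmb8, Psmb9, Psmb11), depth limits what can be seen.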
